A study of Rattus norvegicus with 23 samples.

Results

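The immediate-early factors described here are 9 rat genes of the Fos, Jun and Egr families and the phosphatase gene Dusp1, out of 32494 Ensembl genes counted in the series. They were picked by identifier: Fos (ENSRNOG00000008015), Fosb (ENSRNOG00000046667), Jun (ENSRNOG00000026293), Junb (ENSRNOG00000042838), Egr1 (ENSRNOG00000019422), Egr2 (ENSRNOG00000000640), Egr3 (ENSRNOG00000017828), Egr4 (ENSRNOG00000015719) and Dusp1 (ENSRNOG00000003977). The lower levels of Fos and Egr1 at 6 hours than at 0 hours in control aggregates were known when the set was put together, so that contrast is described below without a test.

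RNA was sequenced from 3D aggregates of brain cells, a culture in which dissociated cells of embryonic day 15 Sprague Dawley rats reassemble into spheres, grown for 14 days under agitation. Aggregates were given sepiapterin at 120 ng/ml, a precursor of the enzyme cofactor tetrahydrobiopterin, or phosphate-buffered saline (PBS) as control. Groups of 3 libraries each were control aggregates at 0 hours (T0) and control and sepiapterin aggregates at 6, 12 and 24 hours (T6, T12 and T24), with repeat libraries of 2 T12 controls, 23 libraries in all. By label, T6 and T12 libraries were prepared in a first batch and T24 libraries with the T12 repeats in a second, while no label places the T0 libraries in either. Each library held between 16991417 and 26588314 reads in genes. The T12 control libraries titled 10 and 11 carry the file headers 10b and 11b, and those titled 10b and 11b carry the headers 10 and 11, so which of them are the repeats is uncertain. If the headers are right, the T12 controls grouped by title hold libraries of both batches. Among the T0 controls, replicate 1 differed most. The chi-square per degree of freedom over genes was 18.8 and 24.6 for its comparisons with replicates 2 and 3, against 2.62 between replicates 2 and 3. Among the T12 controls by title it was 2.5 between 10 and 11, and 5.56 and 5.49 for their comparisons with 12. Between T12 sepiapterin replicates 2 and 3, both in the first batch by label, it was 8.86. Whether batch lies behind these values was not tested. Cell type markers could not be looked up, because the files do not pair identifiers with symbols, and the make-up of the aggregates is taken from the labels.

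Immediate-early genes are transcribed within minutes of a stimulus without new protein synthesis, and their messages are short-lived. Fos and Jun proteins pair to form the transcription factor AP-1, and Egr proteins are zinc-finger transcription factors. In neurons both families are switched on by synaptic activity through calcium and MAP kinase signalling. Dusp1 encodes a phosphatase that removes phosphates from MAP kinases and so acts as feedback on the same pathway.

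Promoter sequence was available from RefSeq (build GRCr8) for 6 of the 9 genes, as 250 bases before and 50 bases after the gene's start. The promoters of Egr1 and Egr2, which stood far lower after 0 hours, of Egr4, whose libraries at 0 and 6 hours overlapped, and of Dusp1 are shown because the genes share a pathway but differ in their course. Each reads 5′ to 3′ on the gene's strand. Capitals mark CArG boxes (the consensus bound by serum response factor) and TGACG, the half-site of the cyclic AMP response element bound by CREB, or its reverse complement CGTCA. Egr1 is at chr18:26736828-26737127 (plus strand), Egr2 at chr20:21054392-21054691 (minus strand), Egr4 at chr4:119607768-119608067 (minus strand) and Dusp1 at chr10:17184603-17184902 (plus strand).
Egr1: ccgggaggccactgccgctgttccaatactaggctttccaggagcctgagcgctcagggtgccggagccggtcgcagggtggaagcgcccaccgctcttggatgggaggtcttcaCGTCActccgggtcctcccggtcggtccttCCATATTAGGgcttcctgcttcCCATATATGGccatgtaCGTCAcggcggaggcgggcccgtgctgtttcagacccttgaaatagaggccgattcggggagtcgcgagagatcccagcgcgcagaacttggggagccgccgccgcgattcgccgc
Egr2: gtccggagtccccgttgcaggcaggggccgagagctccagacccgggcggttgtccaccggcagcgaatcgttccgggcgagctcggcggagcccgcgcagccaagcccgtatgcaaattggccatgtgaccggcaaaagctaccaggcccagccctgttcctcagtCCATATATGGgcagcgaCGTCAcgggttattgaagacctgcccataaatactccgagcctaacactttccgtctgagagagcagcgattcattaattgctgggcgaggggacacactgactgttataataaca
Egr4: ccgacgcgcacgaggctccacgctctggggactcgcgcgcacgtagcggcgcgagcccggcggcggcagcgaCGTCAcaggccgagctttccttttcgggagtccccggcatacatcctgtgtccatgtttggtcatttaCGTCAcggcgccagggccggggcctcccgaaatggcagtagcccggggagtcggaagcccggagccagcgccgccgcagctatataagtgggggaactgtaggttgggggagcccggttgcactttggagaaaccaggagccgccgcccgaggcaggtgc
Dusp1: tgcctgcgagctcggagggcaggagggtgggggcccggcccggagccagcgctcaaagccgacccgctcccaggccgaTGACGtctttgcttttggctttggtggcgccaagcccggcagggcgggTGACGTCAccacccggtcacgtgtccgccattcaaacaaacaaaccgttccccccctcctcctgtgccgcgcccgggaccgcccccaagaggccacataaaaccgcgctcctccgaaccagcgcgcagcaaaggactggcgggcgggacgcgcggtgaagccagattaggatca

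The Egr1 window held 2 CArG boxes and that of Egr2 held 1, whereas 1.64% of 33469 rat promoter windows of this length held any. In both genes a CArG box began at position -83 and a CGTCA at position -66, counted from the gene's start. TGACG, searched on both strands, matched 2 times in the windows of Egr1 and Egr4, 3 times in that of Dusp1, and once in those of Egr2 and Junb. The Dusp1 matches include a TGACGTCA, in which matches on the 2 strands overlap. TGACG was present in 21.2% of all windows. The Fosb window held neither motif, and those of Junb, Egr4 and Dusp1 held no CArG box. The log2 fold changes of T6 against T0 controls were -2.31 for Fosb, -1.0 for Junb, -0.72 for Dusp1 and -0.29 for Egr4. A link between these motifs and the course of the genes was not tested. AP-1 sites (TGANTCA) and Egr sites (GCGNGGGCG), present in 7.33% and 4.98% of all windows, matched in none of the 6. These are matches of letters in a fixed window and say nothing of whether a factor was bound.

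**Figure D1:**
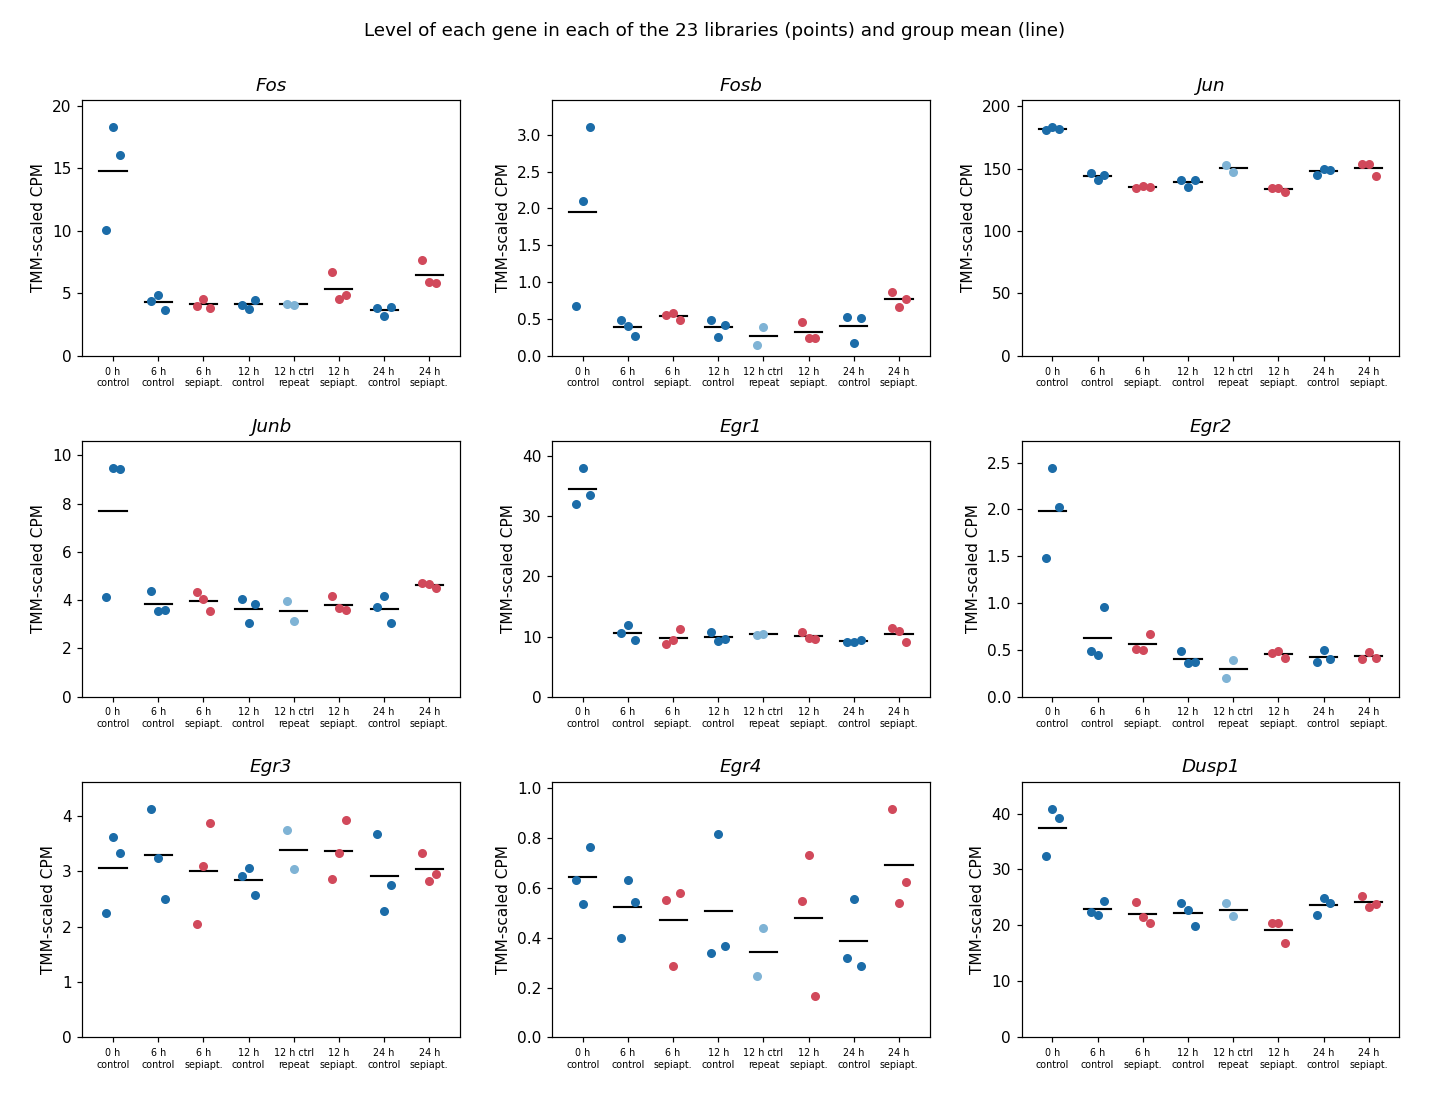
Level of each gene (TMM-scaled CPM, y axis, from 0) in each of the 23 libraries (points) by group (x axis), with the group mean as a line. Control libraries are dark blue, T12 repeats light blue and sepiapterin libraries red. Fos, Egr1 and Egr2 were higher in each T0 library than in each of the 20 later libraries, and Egr3 was not.

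Of these genes 5 were higher in every T0 library than in each of the 20 libraries taken later: Fos, Jun, Egr1, Egr2 and Dusp1. The share of all genes with this pattern was not computed, so whether 5 of 9 is unusual cannot be said. Levels are in CPM, a gene's reads relative to all reads in genes of that library, scaled by TMM, which corrects for differences in library composition. As CPM are not divided by gene length, they are compared only within a gene. In bulk RNA, fewer cells of a type and less RNA per cell cannot be told apart. Between T6 and T0 controls 6 of the 9 genes did not overlap, all lower at T6, where 35.7% of the 14035 genes tested did not overlap in either direction. The median log2 fold change of the 9 genes was -1.0, against -0.01 over all genes. The contrast was in view when the genes were chosen, so these counts and medians carry no weight of their own. Time and library batch cannot be told apart in values against T0.

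Among the Fos genes, Fos, the most studied partner of Jun in AP-1, stood at 10.0, 18.3 and 16.0 CPM in T0 controls and at 4.39, 4.83 and 3.63 CPM in T6 controls. The groups were far apart, and the log2 fold change was -1.78 ± 0.18 (SE, n = 3 each). Fosb, whose protein also pairs with Jun, stood at 0.68, 2.10 and 3.10 CPM at T0 and at 0.49, 0.41 and 0.27 CPM at T6, a log2 fold change of -2.31 ± 0.41. Fosb rested on few reads, 127 summed over the T0 controls and 28 over the T6 controls, and its T0 libraries were spread over a wide range.

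The Jun genes differed in size of shift. Jun, an AP-1 subunit that can also pair with itself, stood at 181, 183 and 182 CPM at T0 and at 147, 141 and 145 CPM at T6, a log2 fold change of -0.34 ± 0.04. This was a small shift with tight replicates, since the SD was 1.19 CPM at T0 and 2.85 CPM at T6. Junb, an AP-1 subunit that can damp activation by Jun, stood at 4.14, 9.47 and 9.43 CPM at T0 and at 4.39, 3.56 and 3.58 CPM at T6, a log2 fold change of -1.0 ± 0.21. The lowest T0 library overlapped the T6 controls for Junb.

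The Egr genes split. Egr1, also called zif-268 and a widely used marker of neuronal activity, stood at 32.1, 38.0 and 33.5 CPM at T0 and at 10.5, 12.0 and 9.43 CPM at T6, a log2 fold change of -1.70 ± 0.10. Egr2 (Krox20), which is known for its part in hindbrain patterning and Schwann cell myelination, stood at 1.49, 2.44 and 2.02 CPM at T0 and at 0.49, 0.45 and 0.95 CPM at T6, a log2 fold change of -1.67 ± 0.25. Both genes were clear of overlap. Egr3, an activity-regulated relative of Egr1, stood at 2.25, 3.61 and 3.32 CPM at T0 and at 4.12, 3.23 and 2.49 CPM at T6, with a log2 fold change of 0.10 ± 0.22 whose 95% interval was -0.35 to 0.55. Egr4 stood at 0.63, 0.54 and 0.76 CPM at T0 and at 0.40, 0.63 and 0.54 CPM at T6, a log2 fold change of -0.29 ± 0.40 with an interval of -1.10 to 0.53. The groups overlapped in Egr3 and Egr4. With 42 and 38 reads summed over each group, a change in Egr4 as large as that of Jun was not detectable at this depth.

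Dusp1 stood at 32.4, 40.8 and 39.3 CPM at T0 and at 22.4, 22.0 and 24.3 CPM at T6. The groups did not overlap, and the log2 fold change was -0.72 ± 0.09.

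**Figure D2:**
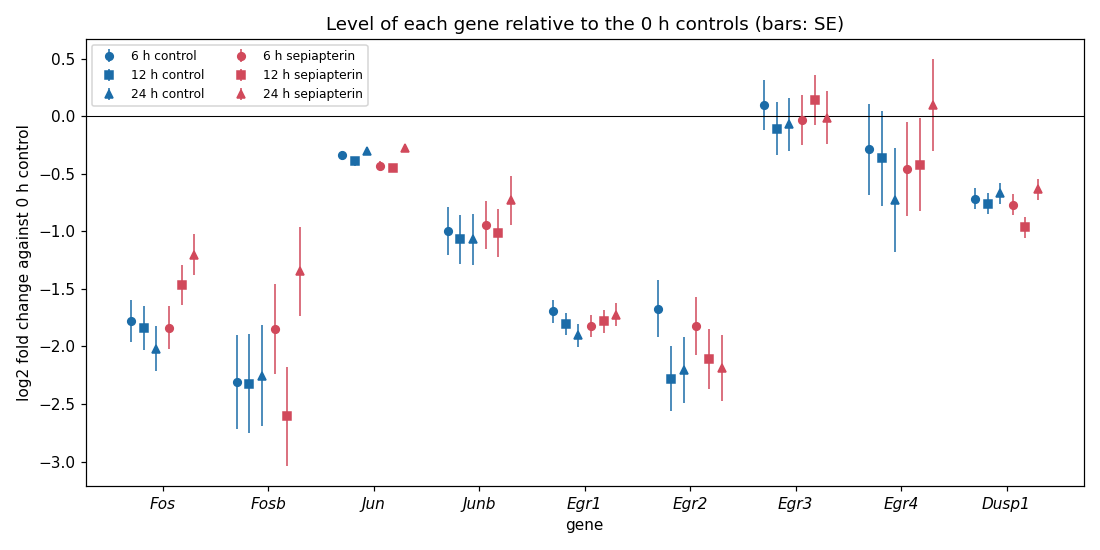
Log2 fold change of each gene (x axis) against the T0 controls (y axis) for the 6 later groups, fitted with edgeR, with SE as bars. The later control groups (blue) lay between -1.70 and -1.90 for Egr1 and spread more widely for Egr2, from -1.67 to -2.28, and every point shares the same T0 libraries.

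T0 control replicate 1 was low in part of these genes. As a share of the mean of T0 replicates 2 and 3 it held 58.5% of Fos, 26.0% of Fosb, 43.8% of Junb, 66.6% of Egr2 and 64.9% of Egr3. It held 99.0% of Jun, 96.9% of Egr4, 89.9% of Egr1 and 80.8% of Dusp1. Over 12700 genes with a mean of at least 1 CPM the median of this share was 99.0%, and the range from the 5th to the 95th percentile was 75.3 to 142%. Fosb, Egr2 and Egr4 average less than 1 CPM over the libraries and are not among these genes, so the range is no measure of their scatter. The Fosb share rested on 15 reads in replicate 1, against 43 and 69 in replicates 2 and 3. Without this library the log2 fold changes of T6 against T0 controls were -1.98 for Fos, -2.71 for Fosb, -1.29 for Junb, -1.73 for Egr1, -1.84 for Egr2 and -0.80 for Dusp1. Jun was at -0.34 and Egr4 at -0.29. Egr3 changed sign, to -0.07.

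**Figure D3:**
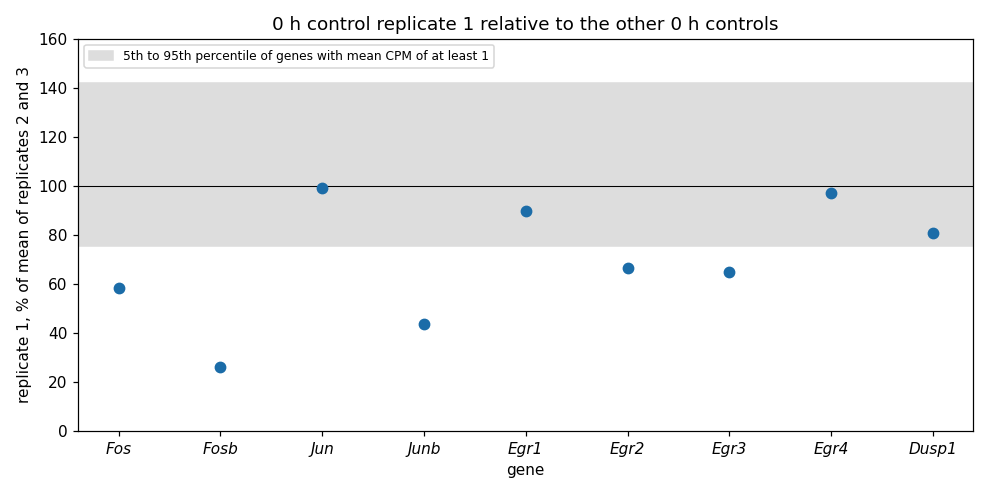
Level of each gene (x axis) in T0 control replicate 1 as a percentage of the mean of T0 controls 2 and 3 (y axis, from 0), with the 5th to 95th percentile of genes with a mean of at least 1 CPM in grey. Fosb, Junb and Fos lay lowest, at 26.0, 43.8 and 58.5%, and Jun and Egr1 lay within the grey range. Fosb, Egr2 and Egr4 average less than 1 CPM and are not among the genes behind the grey range.

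After T6 the control levels of Fos and Egr1 stayed near those at T6. By label T6 controls are in the first batch and T24 controls in the second. Time and batch therefore cannot be told apart between them, and that contrast was not tested. Fos averaged 4.28 ± 0.61 CPM in T6 controls, 4.11 ± 0.36 in T12 controls and 3.64 ± 0.40 in T24 controls (SD, n = 3 each), and Egr1 averaged 10.6 ± 1.27, 9.89 ± 0.85 and 9.24 ± 0.20 CPM. The genes with few reads ranged more widely over the 11 later control libraries, from 0.15 to 0.53 CPM for Fosb, 0.20 to 0.95 for Egr2 and 0.25 to 0.82 for Egr4. Between T12 and T6 controls 0 of the 9 genes passed edgeR's quasi-likelihood test (an adjusted p below 0.05 over all genes), where 4.67% of all genes did. That share ran from 0.543 to 9.87% when 1 library was left out, lowest without T12 control replicate 1 and highest without T12 control replicate 3, and was 1.19% with T12 controls taken by file header. At an unadjusted p below 0.05 the count was 0 of 9 against 21.4% of genes, and DESeq2 called 0 of the 6 genes to which it gave an adjusted p. By title, Jun alone had groups without overlap, lower at T12, where 29% of genes had none. By file header Jun overlapped, with a log2 fold change of 0.03 in place of -0.05, and Egr2 was the gene without overlap. The share of all genes without overlap was not computed by file header. The log2 fold change was -0.06 ± 0.21 for Fos (95% interval -0.51 to 0.38) and -0.11 ± 0.11 for Egr1 (-0.33 to 0.11). That of Egr2 was -0.61 ± 0.34 (adjusted p 0.31). It was -0.19 without T6 control replicate 3 and -0.94 by file header. This contrast shares the T6 controls with the one known when the genes were chosen.

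From T6 to T12 in sepiapterin aggregates, libraries that enter no control contrast, 0 of the 9 genes passed the edgeR test, against 4.37% of all genes. Dusp1 alone had an unadjusted p below 0.05, as did 21.2% of all genes. It averaged 22.0 ± 1.90 CPM at T6 and 19.2 ± 2.04 at T12, a log2 fold change of -0.20 ± 0.09 (SE, adjusted p 0.23). Fosb and Egr2 were without overlap, lower at T12, where 30.8% of genes had none. Their log2 fold changes were -0.76 ± 0.54 (adjusted p 0.45) and -0.29 ± 0.33 (adjusted p 0.67). Fos had a log2 fold change of 0.37 ± 0.20 (adjusted p 0.30). DESeq2 called 0 of the 6 genes with an adjusted p.

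T24 controls were compared with the T12 controls titled as repeats, which by label share the second batch. Of the 8 genes that passed the filter on low counts there (Egr2 did not), 0 passed the edgeR test against 5.54% of all genes, 0 had an unadjusted p below 0.05 against 23% of genes, and DESeq2 called 0 of the 3 with an adjusted p. Fos stood at 3.84, 3.18 and 3.91 CPM in T24 controls and at 4.18 and 4.07 CPM in the repeats, a log2 fold change of -0.18 ± 0.17 (adjusted p 0.56). Egr1 stood at 9.11, 9.14 and 9.48 CPM against 10.2 and 10.5 CPM, a log2 fold change of -0.17 ± 0.11 (adjusted p 0.39). Both genes were without overlap and lower at T24, as were 43.8% of genes in either direction, with only 2 libraries on the T12 side. With the repeats taken by file header both genes overlapped, with log2 fold changes of -0.11 for each. Jun was instead without overlap (0.10, higher at T24, adjusted p 0.49 in the edgeR test). The share of all genes without overlap was not computed for that grouping. By file header 0.58% of all genes were called. Without T12 repeat replicate 1 it was 0.159% of all genes, the lowest share with 1 library left out, and without T24 control replicate 1 it was 8.88%, the highest.

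The T12 controls with repeat libraries give the difference between libraries of 1 sample. By label the libraries of each pair are in different batches, so this difference includes any difference between batches. Jun stood at 140.9 and 135.5 CPM in the libraries titled 10 and 11 and at 153.1 and 147.8 CPM in those titled 10b and 11b, a log2 difference of 0.12 in each pair. Fos differed by 0.03 and 0.11, Dusp1 by less than 0.01 and by -0.06, Junb by -0.02 and 0.04, and Egr1 by -0.08 and 0.19, on the log2 scale. Egr3 differed by 0.36 and -0.01. The genes with few reads differed most, Fosb by -1.72 and 0.62, Egr2 by -1.30 and 0.13, and Egr4 by -0.47 and -0.89. For every one of these genes except Fos and Junb, the larger of its differences exceeds in size its log2 fold change between sepiapterin and control at T24, given next. That contrast lies within the second batch by label, unlike these pairs.

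At 24 hours Fos rose with sepiapterin. It stood at 7.62, 5.87 and 5.81 CPM in sepiapterin aggregates and at 3.84, 3.18 and 3.91 CPM in T24 controls. The lowest of the sepiapterin libraries lay above each of the 11 control libraries taken after T0, which reached 4.83 CPM, and the highest lay below each T0 control. The rise was 1.76-fold, a log2 fold change of 0.82 ± 0.22 (SE, 95% interval 0.36 to 1.27, adjusted p 0.039), and both groups are in the second batch by label. Fos was the only one of the 9 genes to pass the edgeR test, where 4.17% of all genes passed (0.0776% without sepiapterin replicate 1 and 10.3% without sepiapterin replicate 3, the lowest and highest with 1 library left out), and the only one with an unadjusted p below 0.05, as 20.4% of genes had. Fos ranked 445 of 14035 genes by p.

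The Fos call rested on a narrow margin. Its log2 fold change lay between 0.68 and 0.89 when 1 of the 6 libraries was left out, but the adjusted p rose to 0.081, 0.14 and 0.097 without T24 control replicates 1, 2 and 3, and to 0.25 and 0.092 without sepiapterin replicates 1 and 2. It was 0.027 without sepiapterin replicate 3, 0.067 with no filter on low counts and 0.0071 with DESeq2. The Fos reads behind it were 57 to 72 per control library and 98 to 133 per sepiapterin library. In a fit of 18 libraries without T0, where Fos varied most (SD 4.25 CPM), the adjusted p was 0.0051, an alternative chosen after seeing the data.

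Fosb and Junb also lay wholly above the T24 controls, and did not pass the test. Fosb stood at 0.86, 0.66 and 0.78 CPM with sepiapterin and at 0.53, 0.17 and 0.52 CPM in controls, from 41 and 22 summed reads, a log2 fold change of 0.91 ± 0.54 (95% interval -0.21 to 2.02, adjusted p 0.36). Junb stood at 4.70, 4.67 and 4.51 CPM with sepiapterin and at 3.73, 4.18 and 3.04 CPM in controls, a log2 fold change of 0.34 ± 0.24 (interval -0.16 to 0.84, adjusted p 0.46). Groups without overlap were thus found in 3 of the 9 genes, against 23.5% of all genes in either direction.

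The other genes overlapped between sepiapterin and control at T24. Jun, the partner of these factors in AP-1, stood at 153.9, 153.9 and 144.2 CPM against 145.1, 149.5 and 149.0 CPM, a log2 fold change of 0.03 ± 0.04 with an interval of -0.05 to 0.10. Egr1 stood at 11.5, 10.9 and 9.12 CPM against 9.11, 9.14 and 9.48 CPM, with 0.18 ± 0.12 (interval -0.06 to 0.42, adjusted p 0.41). Egr4 stood at 0.92, 0.54 and 0.62 CPM against 0.32, 0.56 and 0.29 CPM, with 0.83 ± 0.46 (interval -0.13 to 1.78, adjusted p 0.32). The log2 fold changes of Dusp1, Egr3 and Egr2 were 0.03, 0.06 and 0.02, with upper limits of 0.23, 0.55 and 0.84. All 9 estimates were above 0, with a median of 0.18, against 51.7% of all genes and a median of 0.01.

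**Figure D4:**
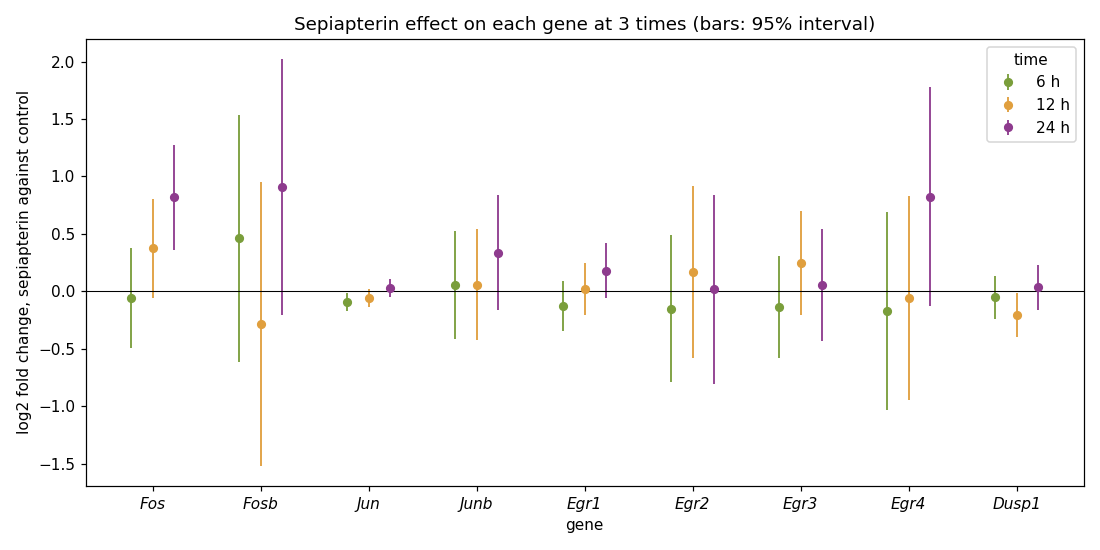
Log2 fold change of sepiapterin against control (y axis) for each gene (x axis) at 6, 12 and 24 hours, with 95% intervals as bars. At 24 hours the interval of Fos (0.36 to 1.27) lies above 0, and those of Fosb and Egr4 are wide.

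At 12 hours 0 of the 9 genes passed the edgeR test between sepiapterin and control, where 0.0214% of all genes passed, and DESeq2 called 0 of the 6 with an adjusted p. Fos stood at 6.74, 4.51 and 4.83 CPM with sepiapterin and at 4.08, 3.78 and 4.49 CPM in controls. The groups did not overlap, but by a narrow gap, and the log2 fold change of 0.37 ± 0.21 (interval -0.06 to 0.81) had an adjusted p of 0.38. Without sepiapterin replicate 1, the highest library, the log2 fold change was 0.18 (adjusted p 0.75). Jun was also without overlap, at 134.5, 134.7 and 131.4 CPM against 140.9, 135.5 and 140.7 CPM, with a log2 fold change of -0.06 ± 0.04 (adjusted p 0.46) that became -0.14 with T12 controls by file header (adjusted p 0.13). By title these 2 of 9 genes compare with 22.2% of all genes without overlap. By file header Egr2 joined them, and the share of all genes was not computed for that grouping. Dusp1 stood at 20.4, 20.4 and 16.9 CPM against 24.0, 22.7 and 19.9 CPM, a log2 fold change of -0.21 ± 0.09 with the only unadjusted p below 0.05 among the 9 (15.9% of all genes had one) and an adjusted p of 0.29.

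At 6 hours 0 of the 9 genes and 0% of all genes passed the edgeR test, and DESeq2 called 0 of the 9. Fos stood at 3.99, 4.57 and 3.83 CPM with sepiapterin and at 4.39, 4.83 and 3.63 CPM in controls, a log2 fold change of -0.06 ± 0.21 with an interval of -0.49 to 0.38. Jun stood at 135, 136 and 135 CPM against 147, 141 and 145 CPM, with -0.09 ± 0.04. It was the only gene of the 9 with an unadjusted p below 0.05, as 2.14% of all genes had, and its adjusted p was 1. Fosb was without overlap too, higher at 0.55, 0.58 and 0.49 against 0.49, 0.41 and 0.27 CPM, from 38 and 28 summed reads. The gap was very narrow, since the lowest sepiapterin library (0.4899 CPM) and the highest control library (0.4873 CPM) held 11 reads each. Groups did not overlap in 10.7% of all genes.

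Averaged over the 3 times, the log2 fold change of Fos was 0.38 ± 0.12 (SE, 95% interval 0.12 to 0.63, adjusted p 0.11), and 0 of the 9 genes passed the edgeR test, against 1.03% of all genes. Fos alone had an unadjusted p below 0.05, as 17.6% of genes did. DESeq2 called 0 of the 6 with an adjusted p, but gave Fos an adjusted p that rounds to 0.05, at the cutoff. Without the T0 libraries in the fit the adjusted p of Fos was 0.019, with a log2 fold change of 0.38, and Fos was then called. By batch, the values are those at T6 and T12 for the first and at T24 for the second.

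The sepiapterin effect on Fos was -0.06, 0.37 and 0.82 at 6, 12 and 24 hours on the log2 scale, and the differences between times were tested directly. From T6 to T24 it differed by 0.87 ± 0.30 (interval 0.24 to 1.51, adjusted p 0.28). Between T6 and T12 the difference was 0.43 ± 0.29 (adjusted p 0.74), and between T12 and T24 it was 0.44 ± 0.30 (adjusted p 0.57). None of the 9 genes passed any of these edgeR tests, where 0%, 0.235% and 0% of all genes passed for T12 minus T6, T24 minus T12 and T24 minus T6. At an unadjusted p below 0.05 the counts were 0 and 0 of 9 for T12 minus T6 and T24 minus T12, against 7.47% and 12.8% of genes. For T24 minus T6 they were 2 of 9, Fos and Jun, against 11.8%. DESeq2 called 0 of the 9, 3 and 4 genes to which it gave an adjusted p in these tests. A larger effect on Fos at 24 than at 6 hours is therefore not shown by this test.

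Ordered by group mean, Fos ran from 14.8 CPM in T0 controls to 6.43 with sepiapterin at T24, 5.36 with sepiapterin at T12, 4.28 in T6 controls, 4.13 with sepiapterin at T6, 4.12 in the T12 repeats, 4.11 in T12 controls and 3.64 in T24 controls. The ranges of neighbours in this order overlapped in every case except T0 against T24 sepiapterin. For Egr1 the later group means lay between 9.24 CPM (T24 controls) and 10.6 CPM (T6 controls), and for Dusp1 between 19.2 CPM (T12 sepiapterin) and 24.2 CPM (T24 sepiapterin). By label these group means come from both batches, and no label places T0 in either.

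Within groups, some pairs of these genes varied together and others in opposite directions. Deviations from the group mean, on the log2 scale over the 18 libraries of the 6 later groups, correlated at 0.76 between Fos and Fosb and at 0.47 between Fos and Egr1. Over the 36 pairs of genes the correlation ran from -0.58 (Egr3 with Dusp1) to 0.76, with a median of 0.083. Levels over all 21 libraries of the 7 groups correlated at a median of 0.774, and at 0.176 over the 18 libraries without T0. Correlations of such deviations were not computed for other genes. The points share libraries and depth, and several genes hold few reads, so these are descriptions.

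Among 11991 genes compared (those averaging at least 1 in log2 CPM), the patterns most like that of Fos over the 21 libraries were those of ENSRNOG00000020384 (Pearson r 0.95) and ENSRNOG00000007607 (r 0.94). Over the 18 libraries without T0 the r was 0.69 and 0.84. ENSRNOG00000020384 also led the list for Egr1, with r 0.92 over 21 libraries and 0.36 without T0, followed by ENSRNOG00000020607 with 0.91 and 0.18. Without T0 the likeness to Egr1 was thus weak.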

How the data were processed

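For every library the authors deposited a table of raw counts by Ensembl gene. The submitters' processing notes name cutadapt 1.8, STAR 2.5.2b, HTSeq 0.6.1 and the build Rnor_6.0. Annotation release and strand setting: not given in the sources used here. Reads of genes overlapping on opposite strands may therefore be mixed. The 5 summary lines were left out; reads outside genes made up 14.8 to 17.1% and multiply aligned reads 23.5 to 25.0%.

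Groups follow the sample titles. No label states that replicates are separate cultures, and the p-values therefore reflect the spread among these samples alone, possibly technical. edgeR 4.0.16 (R 4.3.3) quasi-likelihood tests with robust spread, TMM scaling and filterByExpr (minimum count 10) used 21 libraries (7 groups, 14 residual degrees of freedom), and 8 libraries for T24 against the T12 repeats. All 9 genes passed the first filter, also without T0. p-values were adjusted by Benjamini-Hochberg across every gene tested, and a gene is called below 0.05. SEs come from the log2 fold change and its F statistic. Code was tested on simulated data. Alternatives were other scalings, no filter, DESeq2 1.42.0, other groupings and leaving out libraries. Correlations used log2(CPM + 0.5).

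The genes and lists were chosen with earlier results of these data known. The rule for named genes took all 9, plus the most alike genes by correlation with Fos and Egr1. The 13 lists of other pathway and cell type genes (137 symbols) were not tested, as the reference table (GRCr8) matched 0 identifiers.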

Additional observations from a re-analysis of the deposited data

How the results depend on the processing

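The count of 1 gene called at T24 (Fos) became 0 with no filter on low counts, and ranged from 0 to 1 when single T24 libraries were left out. The cause was not tested. It stayed at 1 under RLE and library-size scaling, DESeq2, T12 controls by file header or as summed pairs, the T24 groups alone, and the fit without T0. The count of 0 for the average over times became 1 (Fos) with only the groups compared, and likewise in the fit of 18 libraries without T0, added after seeing the data; these are the same libraries. The other counts of called genes among the 9 stayed at 0 in every alternative run. The median log2 fold change of T6 against T0 controls was -1.29 to -0.83 over the fits without 1 library. Signs were compared for all 9 genes in T6 against T0 controls, and in the other contrasts only for Fos and some of the others. Among those compared, signs changed in leave-one-out fits for Egr3 in T6 against T0 controls (-0.081 without T6 control replicate 1, -0.07 without T0 control replicate 1, and up to 0.246 in the other fits), for Fos in T12 against T6 controls (-0.154 to 0.0418) and for Fos with sepiapterin at T6 (-0.158 to 0.0445). The number of all genes called, against which these counts are read, also moved. Over all alternatives it ran from 11 to 1463 at T24 (585 in the fit reported), 0 to 309 at T12 (3), 33 to 656 for the average (144), 77 to 1523 between T12 and T6 controls (655), 98 to 1309 between T12 and T6 sepiapterin (614) and 22 to 1256 between T24 and the T12 repeats (757). For the differences between times it ran from 0 to 2 (0), 0 to 567 (33) and 0 to 372 (0) for T12 minus T6, T24 minus T12 and T24 minus T6, and at T6 from 0 to 1 (0). Depth limits Fosb, Egr2 and Egr4, with 3 to 69, 4 to 50 and 4 to 18 reads per library. No paired analysis was possible because the groups compared share no sample numbers in the labels.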
